A study of Homo sapiens with 6 samples.

Results

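LIN28A and LIN28B are the RNA-binding proteins that block maturation of the let-7 microRNAs, and HMGA1, HMGA2, IGF2BP1, IGF2BP2, IGF2BP3, TRIM71, SALL4 and ARID3B are among the genes best known as let-7 targets in fetal and tumour cells. These 10 genes were found by symbol among the 30270 genes of the count table, and 10 of 10 had enough counts to be tested. The data were gene counts estimated from total RNA, depleted of rRNA, of the HEK 293T line, which derives from human embryonic kidney and carries the SV40 large T antigen. One group was wild type (WT, 3 libraries), and the other was labelled as a TENT3A/B double knockout, where TENT3A/B is another name for TUT4 and TUT7 (ΔTUT4/7, 3 libraries). Neither group was treated, and both were grown in the same medium. The knockout came as a single line made in another laboratory, so differences between the 2 lines other than the deleted genes cannot be told apart from the deletion. The labels number the libraries of a group as biological replicates, and because nothing says that they came from separate clones, p-values measure only the spread between these libraries. Levels of the let-7 microRNAs themselves were not analysed here.

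LIN28 binds the terminal loop of let-7 precursors. LIN28A recruits TUT4 or TUT7, which add a tail of uridines that marks the precursor for decay by the exonuclease DIS3L2. Whether LIN28B acts through this step in these cells was not tested. Mature let-7 then pairs, through its seed at bases 2 to 8, with matching letters in the 3′ untranslated region (3′ UTR) of its target mRNAs and lowers their stability and translation. LIN28 transcripts carry such sites too, so the LIN28 and let-7 genes form a double-negative loop. In most adult tissues let-7 is high and these targets are low, whereas embryonic cells and many tumours show the opposite, which is why the targets are called oncofetal.

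Libraries held 18757228 to 33148937 counts. The chi-square per degree of freedom between libraries was 2.38 to 9.97 within a group and at least 63.6 between groups, so no pair of replicates agreed within sampling noise. The check of the deleted genes went against the label for one of them. TUT4 was at 211 ± 5.08 CPM (counts scaled to a common library depth, mean ± SD, n = 3) in WT and at 906 ± 21.4 CPM in the libraries labelled ΔTUT4/7, a log2 fold change of 2.10 ± 0.04 (SE, FDR = 7.89e-19). TUT7 was at 62.6 ± 2.17 CPM in WT and 26.3 ± 1.04 CPM in the libraries labelled ΔTUT4/7, where it fell by 1.25 on the log2 scale (FDR = 2.20e-13). A count over a whole gene does not show whether the transcript is intact, so every direction given here is that of the libraries so labelled. Of 7 genes known to be expressed in this line, 7 reached 1 CPM in some library, with sums of 1813 to 2020 CPM in WT and 1436 to 1452 CPM in the libraries labelled ΔTUT4/7. The sums hide opposite changes: 3 of the 7 were higher and 4 lower in the latter at FDR under 0.05. Over all tested genes, 28.6% were higher and 29.0% lower. The neurofilament gene NEFM was near 0 in the libraries labelled ΔTUT4/7, at 0.0170 CPM, against 969 CPM in WT. NEFL went from 352 to 105 CPM, LHX1 from 3.91 to 1.96 CPM and VIM from 496 to 1250 CPM. Of 12 markers of other cell types, 2 reached 1 CPM, with sums of 2.90 to 4.76 CPM in WT and 1.65 to 2.71 CPM in the libraries labelled ΔTUT4/7, and 1 of these 2, EPCAM, had 0 counts there. In bulk RNA, fewer cells of a type and less RNA per cell cannot be told apart.

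The let-7 family sequences are shown because one seed defines all of the target sites below. RefSeq (GRCh38.p14) lists 9 distinct mature 5p sequences of let-7 and miR-98 from 12 loci, and 9 of 9 carry the same seed, which is in capitals here (5′ to 3′).
let-7a-5p: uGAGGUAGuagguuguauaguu
let-7b-5p: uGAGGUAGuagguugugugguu
let-7c-5p: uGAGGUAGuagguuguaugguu
let-7d-5p: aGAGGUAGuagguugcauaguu
let-7e-5p: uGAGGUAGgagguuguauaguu
let-7f-5p: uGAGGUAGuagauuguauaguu
let-7g-5p: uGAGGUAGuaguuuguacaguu
let-7i-5p: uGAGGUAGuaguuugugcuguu
miR-98-5p: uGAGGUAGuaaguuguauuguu
The sequences differ only outside the seed.

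The transcript letters that pair with the seed are CTACCTC. A match to these with a following A (CTACCTCA) is called an 8mer, the same match without that A a 7mer-m8, and TACCTCA without the leading C a 7mer-A1. All 3 kinds were counted on the sense strand of each 3′ UTR, and overlapping matches were counted once. In the MANE Select transcript, the agreed reference transcript of a gene, 10 of 10 genes held at least 1 match, against 16.0% of 18780 protein-coding genes. The 10 genes held 37 matches in all, of which 14 were 8mers, 10 were 7mer-m8 and 13 were 7mer-A1. TRIM71 had 8 matches, HMGA2 had 7, LIN28B, IGF2BP1 and ARID3B had 5 each, IGF2BP2 had 3, and LIN28A, HMGA1, IGF2BP3 and SALL4 had 1 each. Only 11 of the 18780 genes had 5 or more, and 5 of those 11 are listed here. Since these genes became known as targets partly through such sites, this is a description of the list. The count depends on the transcript: in the transcript with the longest coding sequence, HMGA2 had 0 matches, LIN28B 1 and IGF2BP2 2, and the other 7 genes were unchanged.

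Sites are given here so that their contexts can be compared: the full set of HMGA2, which decreased by 2.00-fold, the single site of SALL4, the gene with the largest decrease, and 1 or 2 sites of each other gene. Positions are in hg38, letters are 5′ to 3′ on the transcript strand, and capitals mark the seed match.
HMGA2 match 1, chr12:65963299-65963328, plus strand: ccaacgttcgatttCTACCTCAgcagcagt
HMGA2 match 2, chr12:65964385-65964414, plus strand: acctgaataccactTACCTCAaattaagca
HMGA2 match 3, chr12:65964534-65964563, plus strand: cccactactcaataCTACCTCtgaatgtta
HMGA2 match 4, chr12:65964897-65964926, plus strand: accctccaagtctgTACCTCAaatgaattc
HMGA2 match 5, chr12:65964946-65964975, plus strand: tgacttgcaaagacCTACCTCcagacttca
HMGA2 match 6, chr12:65965799-65965828, plus strand: atcaaaacacactaCTACCTCttaagtccc
HMGA2 match 7, chr12:65965819-65965848, plus strand: cttaagtcccagtaTACCTCAtttttcata
SALL4 match 1, chr20:51782915-51782944, minus strand: aagctttaatttatCTACCTCAtttatttt
LIN28A match 1, chr1:26427349-26427378, plus strand: cacagcctattgaaCTACCTCAtttttgcc
LIN28B match 1, chr6:105078813-105078842, plus strand: cccggttgcaaagtCTACCTCAtgcaagta
LIN28B match 3, chr6:105081422-105081451, plus strand: tttacagcaaaaggCTACCTCAtagttgat
TRIM71 match 5, chr3:32895806-32895835, plus strand: cttttgctgagtttCTACCTCActtgtggc
TRIM71 match 6, chr3:32895829-32895858, plus strand: ttgtggcaagtcatCTACCTCAtgttagca
IGF2BP1 match 1, chr17:49051062-49051091, plus strand: gtgtgcgaagtaaaCTACCTCAaggtatga
IGF2BP2 match 1, chr3:185644212-185644241, minus strand: acacacagaagaagCTACCTCAggtgtttt
IGF2BP3 match 1, chr7:23311787-23311816, minus strand: gcatttttactcaaCTACCTCAggtattca
HMGA1 match 1, chr6:34245830-34245859, plus strand: cctctgttcacaaaCTACCTCtggacagtt
ARID3B match 1, chr15:74595828-74595857, plus strand: tgatgcacagaattTACCTCAtctcacaga
SALL4, LIN28A and IGF2BP3 each held a single 8mer, the single match of HMGA1 was a 7mer-m8, and ARID3B held no 8mer among its 5 matches. The first HMGA2 match began at base 21 of the 3′ UTR and the first LIN28B match at base 44, whereas the SALL4 match began at base 1335.

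Genes were called changed at FDR under 0.05. Of the 10 genes, 7 decreased in abundance in the libraries labelled ΔTUT4/7 (LIN28B, HMGA2, IGF2BP1, IGF2BP2, IGF2BP3, SALL4 and ARID3B), 2 increased (HMGA1 and TRIM71) and 1 was not called (LIN28A). Over all 23952 tested genes, 29.0% were called lower and 28.6% higher, so that 57.7% were called in either direction. With genes of a mean count of at least 50 alone, 7 of 9 were called lower and 2 higher. Of all 15575 genes at that level, 35.8% were called lower and 35.5% higher. At a change of 2-fold or more, HMGA2 and SALL4 were called lower, against 12.4% of all tested genes, and none of the 10 was called higher, against 5.90%. Among the genes with a mean count of at least 50, 1440 of 15575 were called lower by 2-fold or more and 722 higher. The WT and ΔTUT4/7 libraries did not overlap in 8 of the 10 genes, against 62.7% of all tested genes, and LIN28A and ARID3B overlapped. The share of 62.7% was not taken for well expressed genes alone. The median log2 fold change of the 10 genes was -0.25, and that of all tested genes was -0.02. With library size as the only scaling, the median of all tested genes was -0.13, and under each of the 4 scalings tried the 9 called genes had the same direction.

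**Figure D1:**
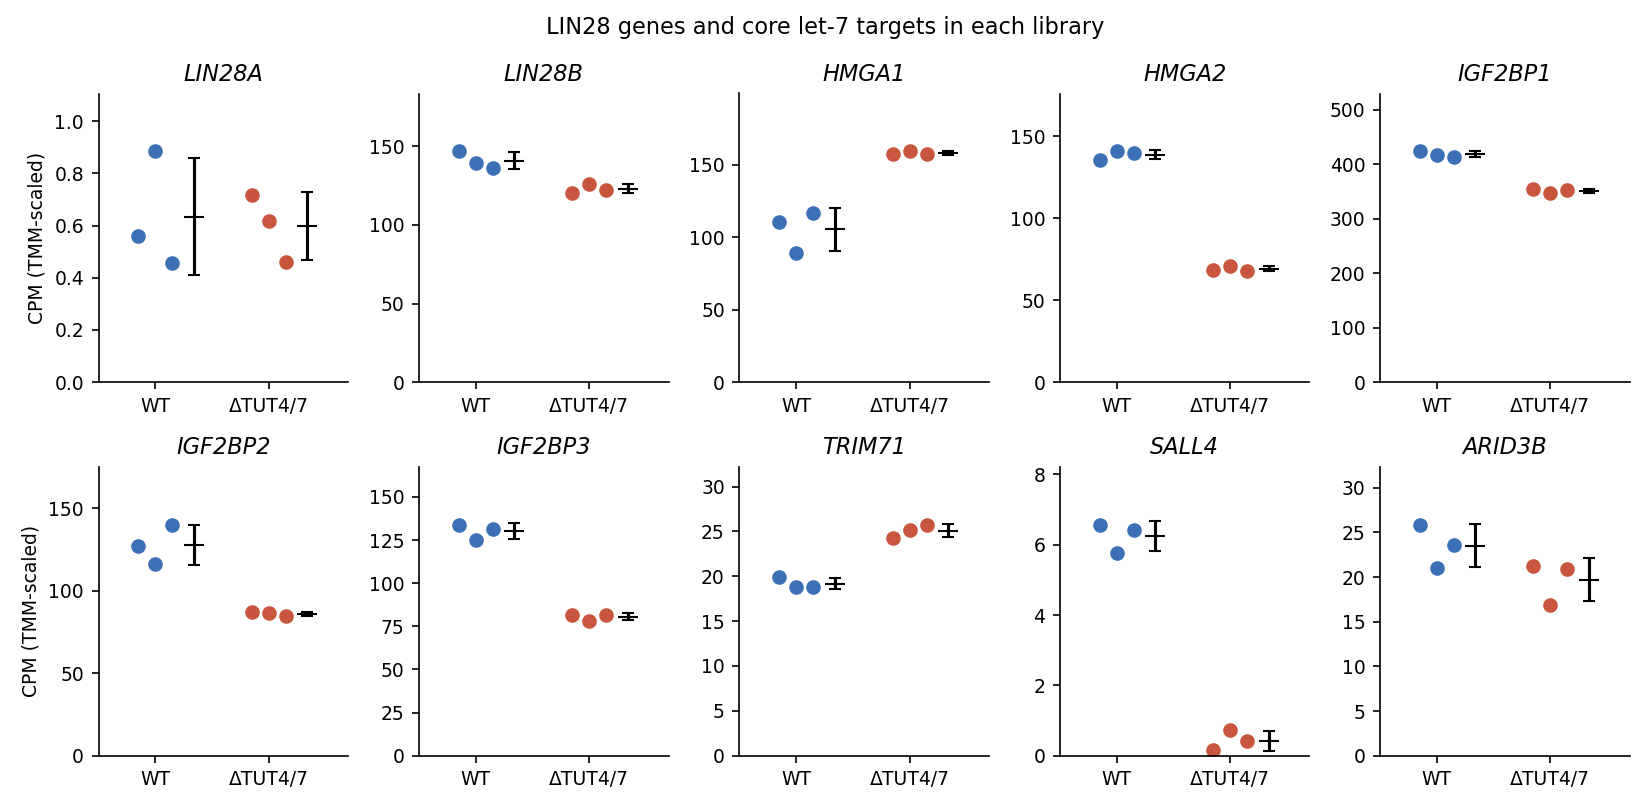
Each panel plots 1 gene, with CPM from 0 on the vertical axis, 1 point per library (blue WT, red labelled ΔTUT4/7) and, in black, the mean ± SD of 3 libraries. SALL4 falls from 5.77 to 6.57 CPM in WT to 0.156 to 0.722 CPM, HMGA1 and TRIM71 lie higher in the red group, and LIN28A and ARID3B overlap.

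LIN28B, the paralog that HEK 293T cells express, decreased slightly, and LIN28A was close to undetected in both groups. LIN28B (chr6:104936616-105083332, plus strand) was at 146.9, 139.5 and 136.3 CPM in WT and at 120.4, 126.1 and 122.4 CPM in the libraries labelled ΔTUT4/7. Each ΔTUT4/7 library lay below each WT library, and the log2 fold change was -0.20 ± 0.05 (FDR = 0.00107). That call was lost with an offset for GC content and length, which gave -0.08 (FDR = 0.0796), and scaling by library size alone gave -0.31. LIN28A (chr1:26410817-26429728, plus strand) was at 0.560, 0.885 and 0.457 CPM in WT and 0.718, 0.619 and 0.460 CPM in the libraries labelled ΔTUT4/7, from 48 and 44 counts in total. Its log2 fold change was -0.05 ± 0.39 (FDR = 0.920), and its sign turned with single libraries: it was -0.27 when WT replicate 3 was left out and 0.27 when WT replicate 2 was. A difference in LIN28A was therefore not detectable at this depth. Per kilobase of transcript, LIN28B made up 99.4% ± 0.218 of the LIN28 pair in WT and 99.3% ± 0.149 in the libraries labelled ΔTUT4/7.

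The 2 HMGA genes, which encode small AT-hook proteins that bend DNA and open chromatin, changed in opposite directions. HMGA2 (chr12:65824460-65966291, plus strand) was at 135.5, 140.8 and 139.5 CPM in WT and at 68.6, 71.1 and 68.0 CPM in the libraries labelled ΔTUT4/7. The groups lay far apart for the size of their spread, and the mean was 2.00-fold lower, a log2 fold change of -1.003 ± 0.05 (FDR = 1.17e-13). That value sits at the 2-fold limit, and it fell short of 2-fold without WT replicate 2 (-0.995), without ΔTUT4/7 replicate 1 (-0.994) and without ΔTUT4/7 replicate 3 (-0.991), and further short, at -0.84, with the offset for GC content and length (FDR = 6.50e-13). HMGA1 (chr6:34236873-34246231, plus strand) was at 110.6, 88.9 and 116.9 CPM in WT and at 157.2, 159.3 and 157.5 CPM in the libraries labelled ΔTUT4/7. The WT libraries were more spread than the others, yet all 3 were lower, and the log2 fold change was 0.58 ± 0.09 (FDR = 0.000943). The ratio of HMGA2 to HMGA1 CPM went from 1.33 ± 0.217 to 0.438 ± 0.00754, while their summed CPM was 244 ± 13.5 and 227 ± 2.73. The 5 HMGA1 pseudogenes in the table held counts equal to 7.15% of the HMGA1 count in WT and 6.20% in the libraries labelled ΔTUT4/7, and 4 genes that overlap HMGA2, led by its antisense gene HMGA2-AS1, held 6.75% and 11.7% of the HMGA2 count. The sources used here do not state whether counting used the strand, so reads of overlapping genes cannot be told apart with certainty.

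All 3 IGF2BP genes decreased, and differences between their fold changes were not tested. Their proteins bind mRNAs in the cytoplasm and shield them from decay, and IGF2BP1 was the most abundant of the 10 genes in CPM. IGF2BP1 (chr17:48997385-49056145, plus strand) was at 424.2, 417.8 and 413.9 CPM in WT and at 354.8, 347.9 and 353.3 CPM in the libraries labelled ΔTUT4/7. With little spread within either group, the log2 fold change was -0.25 ± 0.04 (FDR = 1.90e-05), and it was -0.11 (FDR = 0.00617) with the offset for GC content and length. IGF2BP2 (chr3:185643130-185825042, minus strand) was at 127.4, 116.1 and 140.1 CPM in WT and at 87.0, 86.4 and 84.7 CPM in the libraries labelled ΔTUT4/7, a log2 fold change of -0.57 ± 0.06 (FDR = 4.96e-08). For IGF2BP3 (chr7:23310209-23470491, minus strand), WT libraries were at 133.9, 125.1 and 131.3 CPM and those labelled ΔTUT4/7 at 81.6, 78.2 and 81.7 CPM. None of the latter reached the lowest WT library, and the log2 fold change was -0.69 ± 0.05 (FDR = 6.70e-11). The 2 genes overlapping IGF2BP3, chiefly the ribosome assembly gene MALSU1, held counts equal to 23.4% of its count in WT and 40.2% in the libraries labelled ΔTUT4/7. The summed CPM of the 3 genes went from 677 ± 15.2 to 519 ± 5.52.

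TRIM71, SALL4 and ARID3B, regulators known from stem cells and the early embryo, showed 3 different responses. SALL4 (chr20:51782331-51802521, minus strand), a zinc-finger transcription factor of embryonic stem cells, was at 6.57, 5.77 and 6.42 CPM in WT and at 0.156, 0.722 and 0.409 CPM in the libraries labelled ΔTUT4/7. These values rest on 129, 150 and 197 counts against 5, 14 and 8, and the groups were far apart. The mean was 14.6-fold lower, with a log2 fold change of -3.99 ± 0.29 (FDR = 9.89e-10), and 282 of the 23952 tested genes had a lower one. Leaving out 1 library gave values from -4.59 to -3.45, and on the log2(CPM + 1) scale, which compresses low levels, the change was -2.36. The pseudogene SALL4P7 held 14 counts in WT and 1 in the libraries labelled ΔTUT4/7. TRIM71 (chr3:32817997-32897824, plus strand), a ubiquitin ligase and RNA-binding protein whose worm ortholog was among the founding let-7 targets, was at 19.9, 18.8 and 18.8 CPM in WT and at 24.3, 25.2 and 25.7 CPM in the libraries labelled ΔTUT4/7. Every ΔTUT4/7 library was above every WT library, and the log2 fold change was 0.39 ± 0.08 (FDR = 0.000156). ARID3B (chr15:74541206-74598131, plus strand), a DNA-binding protein of the AT-rich interaction domain family, was at 25.9, 21.0 and 23.6 CPM in WT and at 21.2, 16.9 and 20.9 CPM in the libraries labelled ΔTUT4/7. The groups overlapped, and the log2 fold change of -0.25 ± 0.10 passed narrowly (FDR = 0.0339). The ARID3B call was lost without WT replicate 1 (-0.18, FDR = 0.137), without WT replicate 3 (-0.25, FDR = 0.0671), without ΔTUT4/7 replicate 2 (-0.15, FDR = 0.184), with DESeq2 (FDR = 0.0550) and with limma-voom (FDR = 0.0591).

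**Figure D2:**
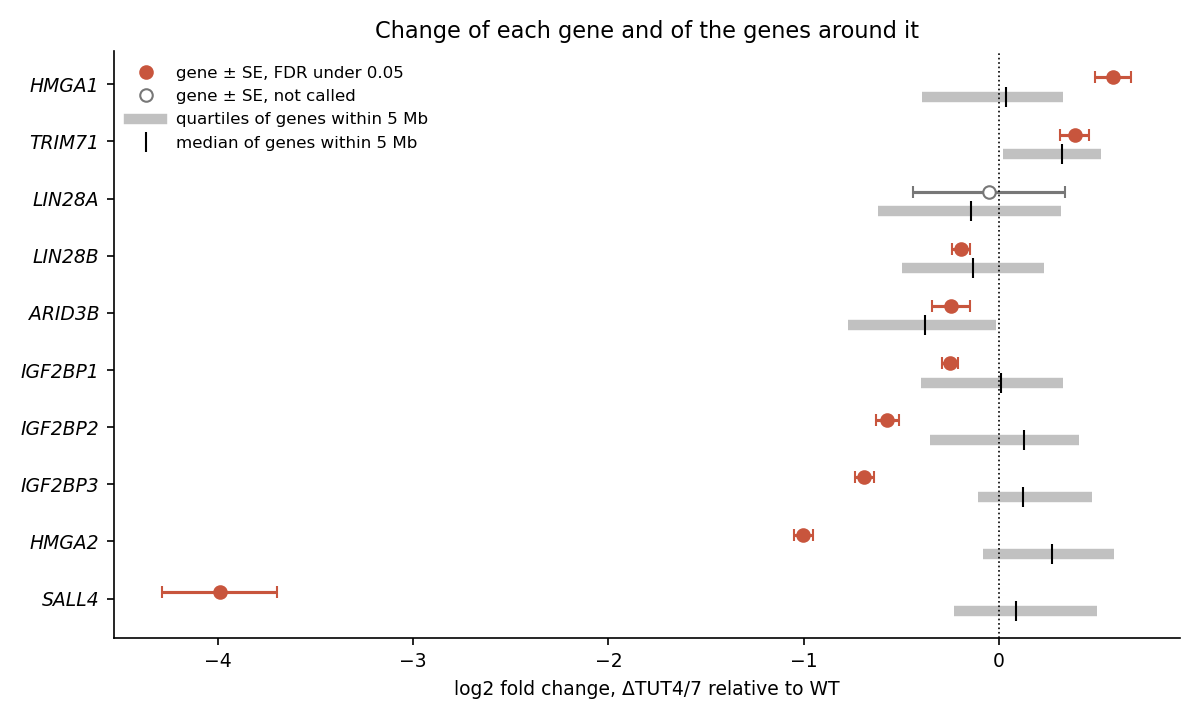
Points are log2 fold changes ± SE of the 10 genes (filled where FDR is under 0.05), and below each a black tick and grey bar give the median and quartiles of the genes that start within 5 Mb. SALL4 at -3.99 lies far from the rest, and HMGA2, IGF2BP3 and IGF2BP2 lie below the lower quartile of their neighbours.

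Genes that start near each of the 10 genes and had a mean count of at least 50 were used to ask how far a change was shared by the surrounding chromosome, since HEK 293T lines can differ in copy number. Around SALL4, 45 genes within 5 Mb had a median log2 fold change of 0.09, and 0 of them lay below SALL4. Around HMGA2, 52 genes had a median of 0.27, and 1 of them lay below HMGA2. For IGF2BP3, 4 of 52 neighbours were lower (median 0.12), and for IGF2BP2, 6 of 52 (median 0.13). HMGA1 was above 150 of its 167 neighbours, whose median was 0.03. TRIM71, LIN28B and ARID3B lay within the range of their surroundings. The 34 genes around TRIM71 had a median of 0.32, close to its own 0.39, and 20 of the 34 were called higher and 7 lower. The 87 genes around ARID3B had a median of -0.38, which is lower than its own -0.25. Of the 87, 53 were called lower and 12 higher. Around LIN28B, 34 genes had a median of -0.14, and around IGF2BP1, 133 genes had a median of 0.01, with 45 of them below IGF2BP1. Of all 15575 genes with a mean count of at least 50, 35.5% were called higher and 35.8% lower. Neighbours called higher and lower numbered 19 and 11 around SALL4, 24 and 10 around HMGA2, and 22 and 12 around IGF2BP3. They were 21 and 17 around IGF2BP2, 60 and 56 around HMGA1, 8 and 15 around LIN28B, and 46 and 43 around IGF2BP1. Around LIN28A they were 36 and 56. Copy number was not measured in these data, and its part in the changes was not tested.

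**Figure D3:**
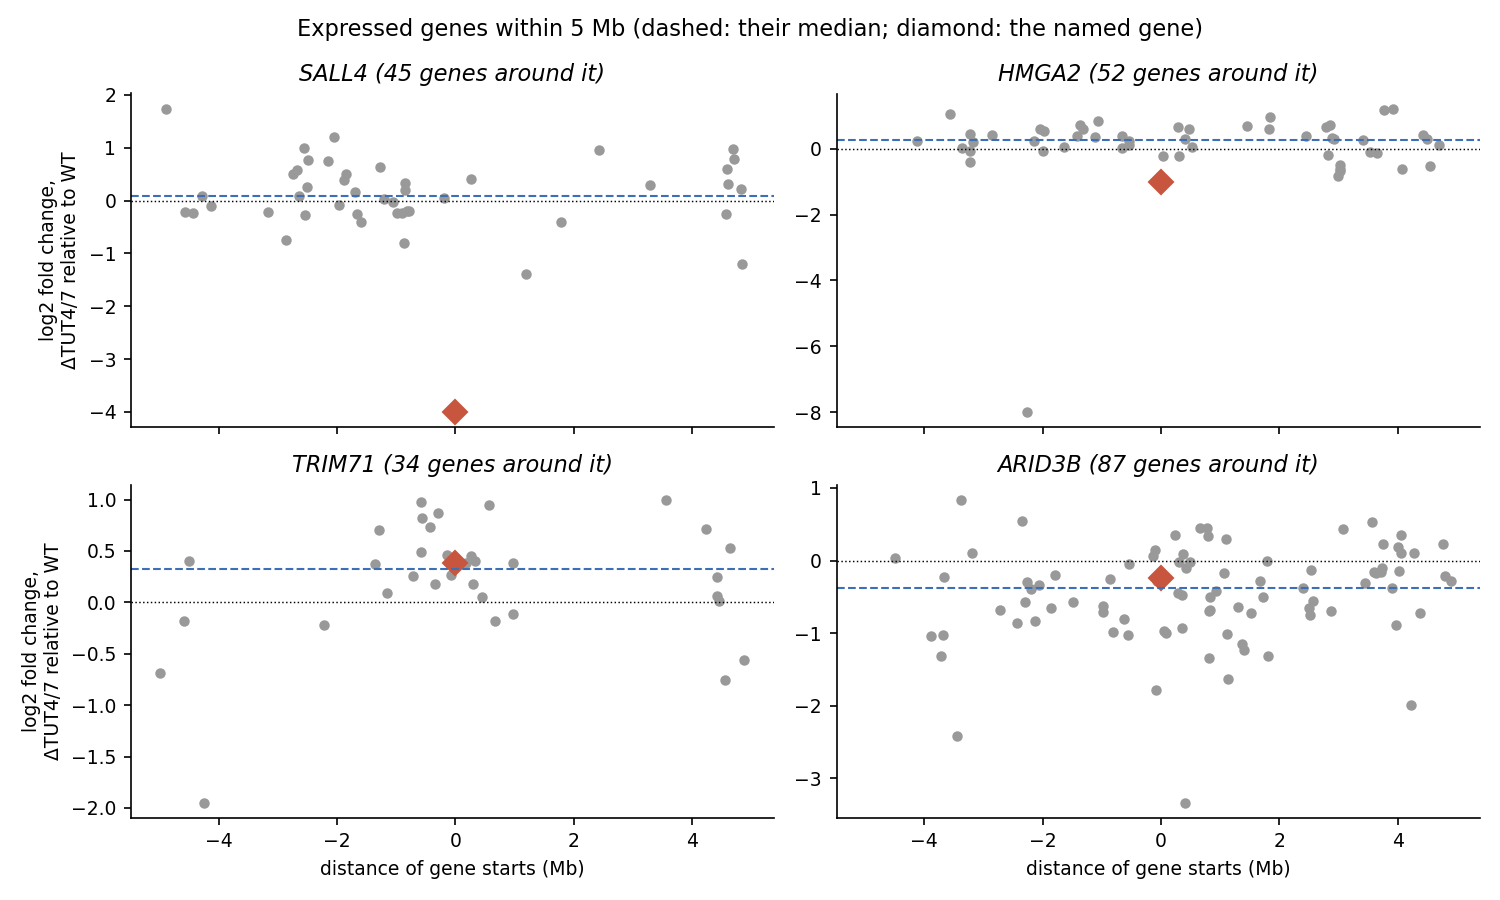
Log2 fold changes of genes with a mean count of at least 50 are plotted against the distance of their start from that of SALL4, HMGA2, TRIM71 or ARID3B (red diamond), with the neighbours' median as a dashed line. SALL4 is below all 45 neighbours and HMGA2 below 51 of 52, whereas TRIM71 (0.39) and ARID3B (-0.25) lie near their neighbours' medians of 0.32 and -0.38.

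The balance within each family was compared on CPM per kilobase of the longest transcript, since levels of different genes can be set side by side only per length. HMGA2 was 26.2% ± 3.08 of the HMGA pair in WT and 10.5% ± 0.161 in the libraries labelled ΔTUT4/7. Its share in single libraries was 24.6%, 29.7% and 24.1% in WT and 10.4%, 10.6% and 10.3% in those labelled ΔTUT4/7, and the groups did not overlap. IGF2BP1 went from 44.2% ± 1.57 to 50.7% ± 0.111 of the IGF2BP family, IGF2BP2 from 27.6% ± 1.79 to 25.5% ± 0.423 and IGF2BP3 from 28.2% ± 0.427 to 23.9% ± 0.374. For each of these shares the two-sided exact permutation test gave p = 0.1, the smallest that 3 against 3 libraries allow, and 0.14 after Benjamini-Hochberg adjustment over 7 shares, so none can pass 0.05. The share of LIN28B gave p = 0.8 by the same exact test, adjusted 0.8. With CPM not divided by length, the HMGA2 share fell by 26.5 percentage points instead of 15.7, and with merged exon length by 10.7.

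**Figure D4:**
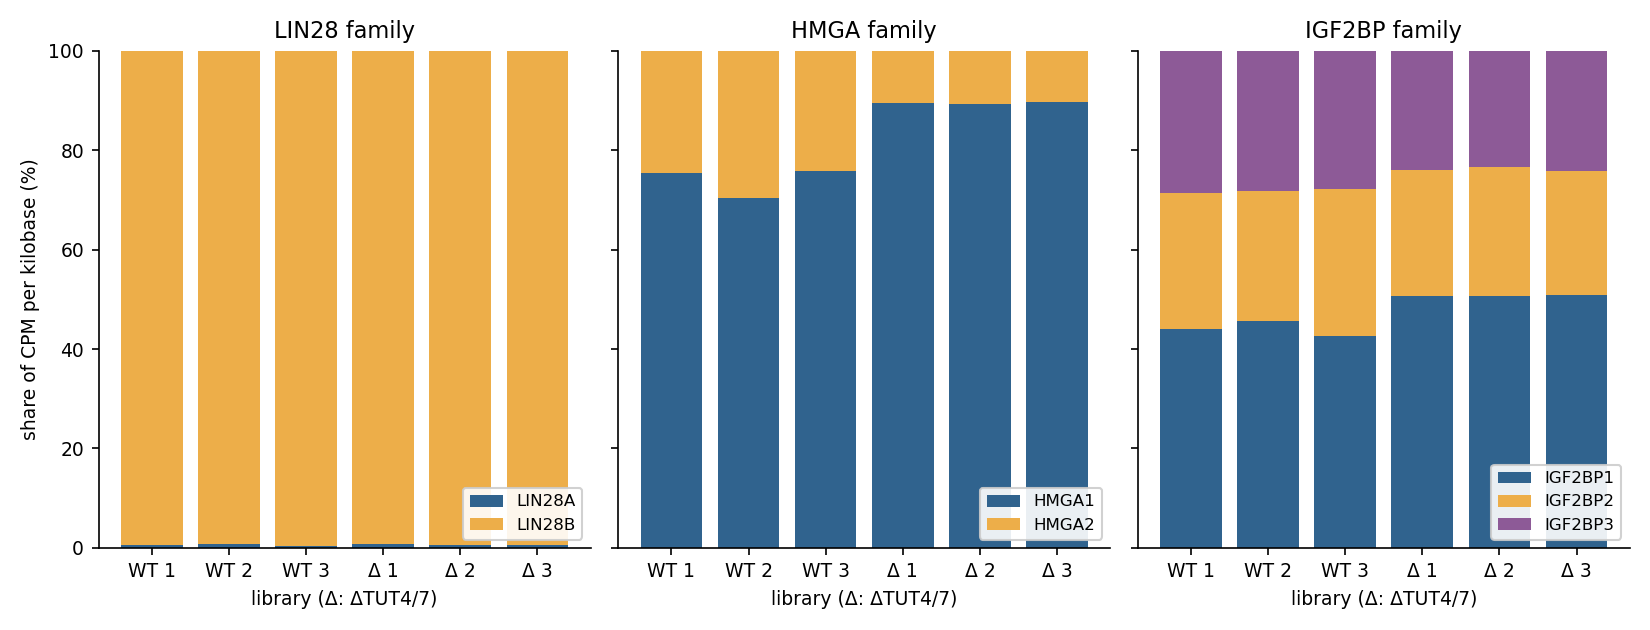
Stacked bars give each gene's percentage of its family's CPM per kilobase in each of the 6 libraries (Δ, labelled ΔTUT4/7). HMGA2 takes 24.1% to 29.7% of the HMGA pair in WT and 10.3% to 10.6% in the libraries labelled ΔTUT4/7, while LIN28B stays above 99% in all 6.

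The order of the 10 genes by CPM per kilobase in WT was HMGA1 (48.9), IGF2BP1 (47.6), IGF2BP3 (30.4), IGF2BP2 (29.9), LIN28B (25.9), HMGA2 (17.1), ARID3B (5.54), TRIM71 (2.20), SALL4 (1.20) and LIN28A (0.159). HMGA1 and IGF2BP1 could not be ordered because their WT libraries overlapped, and neither could IGF2BP3 and IGF2BP2. In the libraries labelled ΔTUT4/7 the order was HMGA1 (73.2), IGF2BP1 (40.0), LIN28B (22.6), IGF2BP2 (20.1), IGF2BP3 (18.8), HMGA2 (8.55), ARID3B (4.64), TRIM71 (2.88), LIN28A (0.151) and SALL4 (0.0823), where only the last pair overlapped. SALL4 thus lay clear of LIN28A in WT, and the 2 overlapped in the other group. The place of HMGA2 depends on the length assumed: its WT level was 17.1 with the longest transcript, 33.7 with the MANE Select transcript and 9.20 with merged exons. IGF2BP3 moved as well, from 30.4 to 15.2 with merged exons, which put it below LIN28B at 23.7 with their WT libraries apart.

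The number of let-7 matches did not order the changes of these genes. The 5 genes with 5 or more matches ran from a log2 fold change of -1.003 (HMGA2, 7 matches) to 0.39 (TRIM71, 8 matches), and the 4 genes with 1 match ran from -3.99 (SALL4) to 0.58 (HMGA1). For comparison, the median log2 fold change over all tested protein-coding genes was 0.06 in 11613 genes with 0 matches, -0.01 in 2066 with 1, -0.11 in 362 with 2 and -0.15 in 110 with 3 or more. Those called lower were 31.2%, 35.7%, 45.3% and 49.1% of these classes in the same order, and those called higher were 39.2%, 36.2%, 32.3% and 34.6%. Without the 6 genes studied here that have 3 or more matches, the last class had a median of -0.12 over 104 genes, of which 47.1% were called lower. At 2-fold or more, 1228 of the 11613, 230 of the 2066, 41 of the 362 and 8 of the 110 genes were called lower. Those called higher by as much were 763, 95, 16 and 7 in the same order. Genes with an 8mer, 608 in all, had a median of -0.02, with 38.3% called lower and 35.0% higher. The length of the 3′ UTR was not taken into account.

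**Figure D5:**
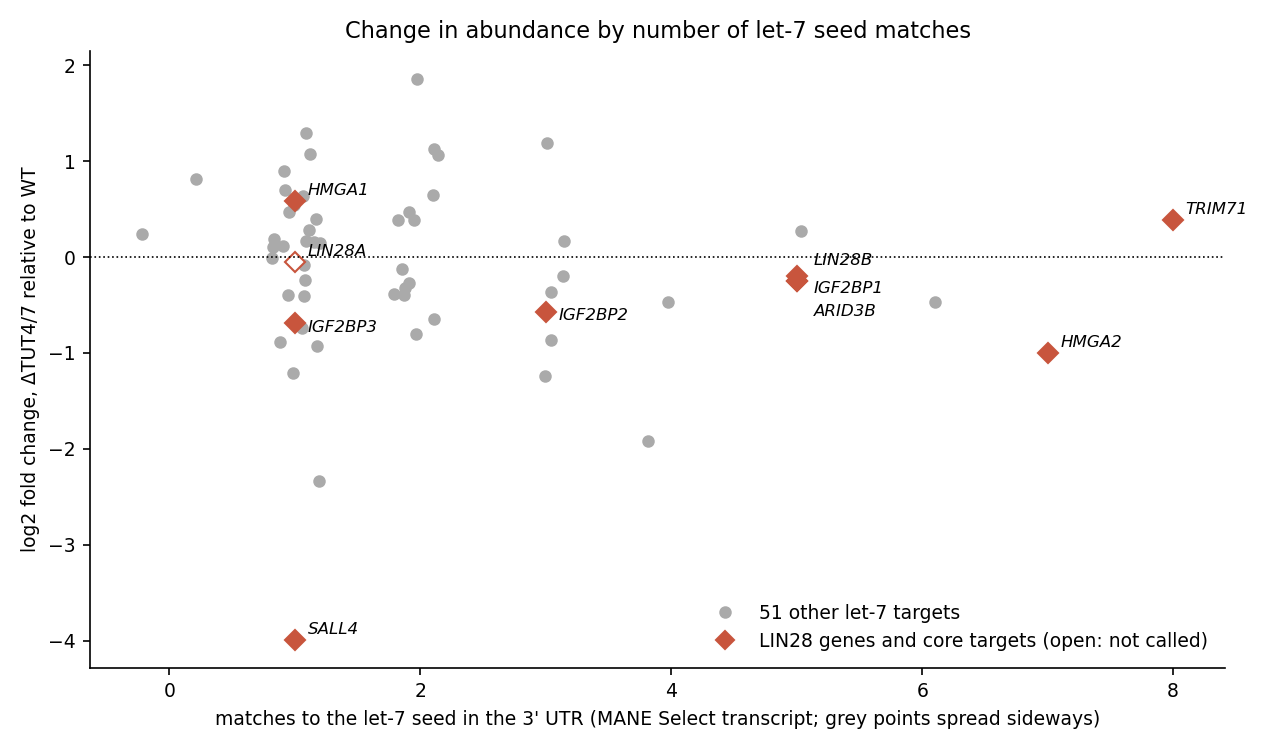
The log2 fold change is plotted against the number of let-7 seed matches in the MANE Select 3′ UTR for the 10 genes (red diamonds, open where not called) and for 51 other let-7 targets (grey). SALL4 at 1 match has the largest decrease, and TRIM71 at 8 matches is above 0.

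A list of 54 other let-7 targets from the literature gave 51 tested genes, of which 22 (43.1%) were called higher, 21 (41.2%) lower and 8 were not called. Over all tested genes the shares were 28.6% and 29.0%, but most of these targets are well expressed. With genes of a mean count of at least 50 alone, 41.7% of 48 targets were called higher and 43.8% lower, against 35.5% and 35.8% of all 15575 genes at that level. The median of the 51 was 0.11. Among those with a mean count of at least 100, the lowest log2 fold changes were those of IGDCC3 (-1.92 ± 0.27), a cell-surface protein with 4 matches, ARID3A (-1.24 ± 0.08), the closest relative of ARID3B, the insulin receptor INSR (-1.21 ± 0.05), the death receptor FAS (-0.93 ± 0.11) and IGDCC4 (-0.89 ± 0.12). INSR went from 128 ± 5.18 to 55.2 ± 2.72 CPM and ARID3A from 67.0 ± 6.21 to 28.2 ± 2.64 CPM. The highest were cyclin D1 (CCND1, 1.86 ± 0.07), the activin receptor ACVR1C (1.29 ± 0.16), the cell-cycle phosphatase CDC25A (1.19 ± 0.05), cyclin J (CCNJ, 1.13 ± 0.05) and the insulin receptor substrate IRS2 (1.08 ± 0.10). CCND1 went from 32.0 ± 3.53 to 116 ± 4.53 CPM and CDC25A from 92.5 ± 4.38 to 211 ± 4.15 CPM. The 10 listed targets with 3 or more matches had a median of -0.42, with 7 called lower and 3 higher. The 14 with 2 matches had a median of 0.13, with 6 called lower and 7 higher. The 27 with 0 or 1 match had a median of 0.16, with 8 called lower and 12 higher. Of all tested protein-coding genes, 49.1% were called lower and 34.6% higher with 3 or more matches. With 2 matches these shares were 45.3% and 32.3%, with 1 match 35.7% and 36.2%, and with 0 matches 31.2% and 39.2%. The length of the 3′ UTR was not taken into account here either, and differences between the classes were not tested. By library size alone, 17 of the 51 were called higher and 24 lower, and by the upper quartile 18 and 24. Over all 23952 tested genes, the numbers were 5548 and 8272 by library size alone, and 5728 and 8121 by the upper quartile.

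Genes that act on let-7 maturation or carry out its silencing were tested as a list of 22. Of these, 11 were called higher, 5 lower and 6 were not called, against 28.6% higher and 29.0% lower over all tested genes. The list holds TUT4, counted as higher, and TUT7, counted as lower, the genes named in the knockout label. The balance of higher and lower calls turned with the scaling. By library size alone, 9 of the 22 were called higher and 11 lower, and by the upper quartile 9 and 7. With the offset for GC content and length, 14 were called higher and 4 lower. Over all 23952 tested genes, 5548 were called higher and 8272 lower by library size alone, and 5728 and 8121 by the upper quartile. With the offset those numbers were 7108 and 6960. All 22 had a mean count of at least 50, and with genes at that level alone 9 were called higher and 5 lower. Of all 15575 genes at that level, 35.5% were called higher and 35.8% lower. Besides TUT4 and TUT7, the genes called at 2-fold or more were DROSHA, the nuclease that cuts primary microRNAs (1.02 ± 0.05), TARBP2, a partner of Dicer (1.07 ± 0.08), TNRC6B, a scaffold of the silencing complex (-1.15 ± 0.05), and TRIM25, a ubiquitin ligase reported to aid TUT4 on let-7 precursors (-1.03 ± 0.05). Each fell short of 2-fold in some alternative fit, reaching 0.90 for DROSHA, 0.92 for TARBP2, -0.92 for TNRC6B and -0.98 for TRIM25. TUT4 and TUT7 included, the whole list had 3 genes called higher and 3 lower at 2-fold, against 5.90% and 12.4% of all tested genes. In the list, those numbers were 1 and 3 by library size alone or the upper quartile, and 2 and 1 with the offset. Over all tested genes they were 1064 and 3468 by library size alone, 1095 and 3395 by the upper quartile, and 1304 and 3029 with the offset. DROSHA went from 112 ± 3.86 to 227 ± 5.35 CPM, TARBP2 from 16.0 ± 1.35 to 33.5 ± 0.838 CPM, TNRC6B from 331 ± 10.3 to 149 ± 6.72 CPM and TRIM25 from 101.8 ± 1.31 to 49.9 ± 0.530 CPM. DIS3L2, the nuclease that degrades uridylated precursors, was at 32.3 ± 0.552 and 31.4 ± 0.875 CPM (-0.04 ± 0.06, FDR = 0.612), and was called lower by library size alone (-0.156, FDR = 0.0469). DICER1, which makes the mature microRNA, had a log2 fold change of -0.02 ± 0.04 (FDR = 0.720), and its direction depended on the scaling: it was called lower by library size alone (-0.136, FDR = 0.0150) and by the upper quartile (-0.121, FDR = 0.0271), and higher with the offset for GC content and length (0.20, FDR = 3.59e-05). MSI1, a neural RNA-binding protein known to act with LIN28, increased by 0.85 ± 0.07 on the log2 scale, and its paralog MSI2 had -0.04 ± 0.05 (FDR = 0.488). MSI2 was called lower by library size alone (-0.158, FDR = 0.0105) and by the upper quartile (-0.143, FDR = 0.0184).

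Of 8 paralogs of the targets, 7 were tested and 5 decreased, against 29.0% of all tested genes called lower. All 7 had a mean count of at least 50, a level at which 35.8% of all genes were called lower. SALL1 (-0.33 ± 0.06) and SALL2 (-0.22 ± 0.06) decreased far less than SALL4 did, and SALL3 had 0.17 ± 0.10 (FDR = 0.135). ARID3A, also counted above among the other let-7 targets, decreased more than ARID3B in size (-1.24 against -0.25), a difference that was not tested. Among relatives of TRIM71, TRIM2 (-0.55 ± 0.05) and TRIM32 (-0.87 ± 0.07) decreased, and TRIM3 had 0.03 ± 0.10 (FDR = 0.797), a value below 0 when scaled by library size alone or by the upper quartile. Of 8 other oncofetal genes, 5 were tested and 3 called lower, against 29.0% of all tested genes. Only 1 of the 5 had a mean count of at least 50. The fetal proteoglycan GPC3 (-0.83 ± 0.12), the growth factor IGF2 (-0.79 ± 0.24) and the imprinted RNA H19 (-1.91 ± 0.36) decreased, while PEG10 (-0.22 ± 0.37) and MEST (-0.54 ± 0.31) were not called. Without WT replicate 2, MEST was called (-0.76, FDR = 0.0486). GPC3 went from 17.5 ± 2.75 to 9.88 ± 1.22 CPM, whereas IGF2 was at 2.20 ± 0.473 and 1.29 ± 0.180 CPM and H19 at 1.41 ± 0.239 and 0.341 ± 0.193 CPM, so these 2 rest on few counts. The IGF2 call was lost without WT replicate 3 (-0.60, FDR = 0.0624). Of 10 genes of the pluripotency network, 3 were in the table used. SOX2 (-0.46 ± 0.14) and POU5F1 (-0.42 ± 0.16) decreased and the DNA methyltransferase DNMT3B increased (0.59 ± 0.07). POU5F1 was at 4.62 ± 0.309 and 3.50 ± 0.518 CPM, and its call (FDR = 0.0359) was lost without WT replicate 1, without WT replicate 2 and without ΔTUT4/7 replicate 1, at -0.42, -0.37 and -0.28, with DESeq2 (FDR = 0.107) and with the replicate number as a block (FDR = 0.0511).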

How the data were processed

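RNA-seq of HEK 293T cells was analysed in 3 WT and 3 ΔTUT4/7 libraries, grouped by the genotype label. Per the labels, reads were mapped to hg38 by the authors using STAR 2.7.3a, and the deposited values are estimated counts per Ensembl gene from the expectation-maximisation model of Partek 10.0.22. Values that are not whole numbers made up 45.2% to 50.0% of each library. A second deposited table holds the authors' own comparison (p-value, FDR, ratio, fold change and group means) and was not used. No column of sample values was left out.

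Counts were rounded and genes kept where the largest count was above 12 (23952 genes; the 6318 others held 0.0960% of counts). They were tested with edgeR 4.0.16 under R 4.3.3 (TMM scaling, robust quasi-likelihood test, no covariate besides group). The FDR is the Benjamini-Hochberg value over every tested gene. CPM is relative to the TMM-scaled library size. Log2 fold changes are ΔTUT4/7 relative to WT, with standard errors from the quasi-likelihood F statistic. Limma 3.58.1 and DESeq2 1.42.0 served as alternatives. Transcript models and lengths came from GENCODE on the same build. The stop column of the table lay 1 base past the annotated end for most genes, and ends are printed without it. The steps were tested on simulated counts.

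The 10 genes and the lists were chosen with earlier results of these data known, as was the use of MANE Select transcripts. Text names all 10 genes, all tested paralogs and oncofetal genes, the 5 highest and 5 lowest called let-7 targets whose mean count reached 100, and, of the let-7 processing genes, TUT4, TUT7, DIS3L2, DICER1, MSI1, MSI2 and those called at 2-fold or more, and pluripotency genes at 1 CPM or more. Genes overlapping one of the 10 were named by position. NEFM, NEFL, LHX1, VIM and EPCAM were named after their values were seen.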

Additional observations from a re-analysis of the deposited data

How the results depend on the processing

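Over 179 alternative fits of the 10 genes, 161 kept direction and call, 13 lost a call, 0 gained one and 5 changed sign, the latter all of LIN28A. HMGA2, IGF2BP3 and SALL4 kept their call under each of 18 alternatives. Against a minimum change of 1.5-fold, 3 of the 10 genes were called instead of 9, 16 other let-7 targets instead of 43, 7 processing genes instead of 16 and 5135 genes in all instead of 13813, since that test asks for more than any change. Genes of the 10 called at 2-fold or more were 1 instead of 2 with limma on log2(CPM + 1), with the GC and length offset and with that offset and the replicate block, and 1 to 2 when a library was left out. In each case HMGA2 was the gene lost: it was at -0.99 on the log2(CPM + 1) scale and at -0.84 with the offset, with or without the block. LIN28A was at 0.0159 with limma-voom, at 0.0036 with the offset and at 0.0001 with offset and block, and at -0.27 to 0.27 with a library left out. TRIM3 was at -0.0812 by library size, -0.0666 by upper quartile, -0.0303 with genes of mean count 50 or more alone, and -0.0315 to 0.147 with a library left out. DICER1 was called lower at -0.136 by library size and -0.121 by upper quartile, and was at 0.20 with the offset and 0.205 with offset and block, and -0.0473 to 0.013 with a library left out. MSI2 was called lower at -0.158 by library size and -0.143 by upper quartile, and was at 0.032 with the offset and 0.0327 with offset and block. PEG10 ran from -0.61 to 0.0941, and the difference in LIN28B share from -0.175 to 0.0272 percentage points, with a library left out. The cause of these shifts was not tested. Adding 0.5 CPM to each gene left the direction of the LIN28B, HMGA2 and IGF2BP3 shares unchanged. The IGF2BP1 and IGF2BP2 shares were not tried this way.

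The replicate numbers gave no visible pairing of the libraries. Deviations from the group means correlated at 0.0613, 0.0050 and -0.0353 for the 3 same-numbered pairs over 15575 genes. WT replicate 1 with ΔTUT4/7 replicate 3 gave 0.0635. The highest value was 0.104, for WT replicate 3 with ΔTUT4/7 replicate 2. From values this near 0, pairing can be neither shown nor excluded. With the replicate block, 13678 genes were called instead of 13813, 9 of the 10 genes were called as before, and the call of POU5F1 was lost (-0.41, FDR = 0.0511). Depth limits LIN28A, at 48 and 44 counts, and the low level of SALL4 in the libraries labelled ΔTUT4/7, at 27 counts in all. The MANE Select transcript in place of the longest coding sequence, and the lengths tried for levels per kilobase, were chosen after seeing the data.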
